A study of Mus musculus with 19 samples.

Results

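The genes described here are 36 genes of the extracellular matrix and of the cells that make it, chosen by symbol. They comprise 11 collagen chains, 5 proteoglycans and matricellular proteins, 7 proteins of elastic fibres and microfibrils, 3 fibroblast surface proteins, 2 crosslinking enzymes, 4 contractile or intermediate filament proteins, and a matrix protease with 3 protease inhibitors. All 36 were present among the 13549 genes of the embryo table and among the 17606 genes of the tumour files.

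In liver, matrix is made mainly by mesenchymal cells, that is stellate cells, portal fibroblasts, vascular smooth muscle and mesothelium, with basement membrane collagen also made by endothelium. Collagen chains assemble into triple helices inside the cell, are trimmed outside it and are joined by lysyl oxidases, while small proteoglycans bind the fibrils and fibulins and microfibril proteins organise elastic fibres. Fibrolamellar carcinoma, the human tumour that these mice were made to model, is named for the lamellar bands of collagen that run through it.

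RNA was sequenced in 2 experiments. The first compared livers of mouse embryos at embryonic day 18.5, 5 labelled control and 4 labelled DNAJ1B-PKA_Overexpression. In the latter (called fusion livers below), a DNAJB1-PRKACA-GFP cDNA sat behind a lox-stop-lox cassette in the Rosa26 locus (Rosa26 LSL-DNAJB1-PKA-GFP) and was released by Alb-Cre, a Cre recombinase under the albumin promoter, which acts in hepatocytes and their precursors. The labels do not say which of these alleles the control embryos carried, or the strain background. The second experiment compared 5 vehicle and 5 palbociclib tumours, all grown from the mouse cell line FL8 in methacrylated gelatin capsules under the skin of the flank of NSG mice, which lack T, B and natural killer cells. Mice were randomized at an average tumour size of 75 mm3 and received 0.5% methocel or palbociclib at 75 mg/kg, both by oral gavage, for 3 days and then rested for 4 days. Palbociclib blocks the cell cycle kinases CDK4 and CDK6. FL8 and its host are both mouse, so host and tumour cell transcripts could not be separated. In all of these bulk samples, fewer cells of a type and less RNA per cell cannot be told apart.

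Embryo libraries held 7.66 to 45.6 M counts (M, 1000000) and tumour libraries 2.96 to 43.1 M, the lowest being vehicle 5. Prkaca, which shares sequence with the fusion cDNA, was at 36.3 to 50.5 CPM (counts scaled to a total of 1000000) in control and 52.0 to 114 CPM in fusion livers. Hepatocyte markers summed to 196000 to 243000 CPM in the embryo livers and 102000 to 152000 CPM in 9 of the tumours, with 48500 CPM in vehicle 1. Vehicle 1 stood apart, with 46.6% of its reads from mitochondrial genes against 1.24 to 6.47% in the other tumours, so tumour results are given with and without it. Among embryo libraries, control 1, control 2, fusion 8 and fusion 9 had 7.81 to 8.46% of counts in ribosomal protein genes against 5.42 to 6.77% in the other 5. This split of the libraries is unlabelled and holds both genotypes. Along it, 7 of the 36 genes were lower in all of the libraries named than in any other, as were 9.73% of all genes. Another 1 was higher in all of them, as were 10.6% of all genes. By Xist, control 1 and 2 and fusion 6, 7 and 8 were female and the other embryos male.

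The promoters of 6 collagen and proteoglycan genes are printed because their genes differ in how they behaved in the livers: Col1a2, Col6a1 and Bgn were lower in fusion livers, Col3a1 was not, and Col4a1 and Col4a2 share a start region. Each runs from 250 bases before to 50 bases after the start that RefSeq gives in GRCm38.p6, 5′ to 3′ on the gene's own strand. Capitals mark the TATA box (TATAAA), the CCAAT box or the GC box (GGGCGG) on either strand. RefSeq promoters were matched for 23 of the 36 genes.
Col1a2: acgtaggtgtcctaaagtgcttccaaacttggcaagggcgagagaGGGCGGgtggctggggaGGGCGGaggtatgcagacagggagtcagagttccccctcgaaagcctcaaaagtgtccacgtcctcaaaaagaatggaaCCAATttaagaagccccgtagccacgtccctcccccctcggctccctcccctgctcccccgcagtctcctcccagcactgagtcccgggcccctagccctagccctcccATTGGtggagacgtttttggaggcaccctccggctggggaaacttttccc
Col6a1: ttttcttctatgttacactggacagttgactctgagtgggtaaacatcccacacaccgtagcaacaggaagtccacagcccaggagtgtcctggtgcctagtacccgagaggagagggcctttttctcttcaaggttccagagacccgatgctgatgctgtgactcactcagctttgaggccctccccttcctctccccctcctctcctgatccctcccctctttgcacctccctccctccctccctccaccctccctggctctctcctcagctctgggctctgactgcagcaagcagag
Bgn: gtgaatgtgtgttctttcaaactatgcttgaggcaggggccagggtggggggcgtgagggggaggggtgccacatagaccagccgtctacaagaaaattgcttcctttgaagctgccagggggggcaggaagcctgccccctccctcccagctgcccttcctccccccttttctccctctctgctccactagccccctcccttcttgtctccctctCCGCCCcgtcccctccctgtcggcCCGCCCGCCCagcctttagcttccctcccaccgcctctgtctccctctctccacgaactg
Col3a1: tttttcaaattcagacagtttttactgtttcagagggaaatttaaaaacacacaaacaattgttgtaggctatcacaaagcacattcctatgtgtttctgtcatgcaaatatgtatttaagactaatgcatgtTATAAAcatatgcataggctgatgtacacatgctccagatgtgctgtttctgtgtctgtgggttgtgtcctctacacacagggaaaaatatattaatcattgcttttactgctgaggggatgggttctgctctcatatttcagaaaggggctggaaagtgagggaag
Col4a1: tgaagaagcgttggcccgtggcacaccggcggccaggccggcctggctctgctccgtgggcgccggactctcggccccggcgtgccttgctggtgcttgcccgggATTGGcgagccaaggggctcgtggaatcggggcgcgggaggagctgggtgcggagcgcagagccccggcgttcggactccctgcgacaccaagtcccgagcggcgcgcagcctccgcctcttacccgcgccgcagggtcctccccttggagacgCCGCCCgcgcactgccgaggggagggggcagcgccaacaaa
Col4a2: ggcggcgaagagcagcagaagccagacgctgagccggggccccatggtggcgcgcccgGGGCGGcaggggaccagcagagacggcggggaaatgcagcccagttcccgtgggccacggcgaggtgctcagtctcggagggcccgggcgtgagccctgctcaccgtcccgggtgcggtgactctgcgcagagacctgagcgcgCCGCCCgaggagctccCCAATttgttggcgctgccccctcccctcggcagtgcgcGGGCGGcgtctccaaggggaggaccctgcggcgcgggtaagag

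These windows are chr6:4505368-4505667 (plus strand) for Col1a2, chr10:76725995-76726294 (minus) for Col6a1, chrX:73483351-73483650 (plus) for Bgn and chr1:45311288-45311587 (plus) for Col3a1. The windows of Col4a1, chr8:11312777-11313076 (minus), and Col4a2, chr8:11312555-11312854 (plus), overlap by 78 bases, since these genes are read in opposite directions from one start region. The GC box GGGCGG was in a promoter of 15 of 23 member genes and in 35.7% of 32851 RefSeq mouse promoters of this length. Here and below, members are counted by gene, with a match in any of its promoters, and the percentages by promoter. Within the printed windows the GC box appeared 2 times in Col1a2, 3 times in Bgn, 1 time in Col4a1 and 3 times in Col4a2. It was not in Col6a1 or Col3a1. CCAAT was in 9 of 23 (37.4% of all promoters) and TATAAA in 3 of 23 (13.6%), namely Col3a1, Postn and Vim. The cAMP response element TGACGTCA, the sequence bound by CREB factors downstream of protein kinase A, was in none of the 23 and in 1.79% of all promoters. Its half-site TGACG was in 4 (Des, Fbln5, Pdgfra and Timp1) and in 20.8% of all. No motifs other than those named here were searched for, and a match is not evidence of binding.

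In fusion livers, 5 matrix genes were lower than in controls: the type I collagen chains Col1a1 and Col1a2, the type VI collagen chain Col6a1, the proteoglycan Bgn and the fibroblast surface protein Thy1. No member was higher, as 5.99% of all genes were. These are 5 of 35 members tested, where 6.81% of all 13316 genes tested were called lower (edgeR quasi-likelihood test, adjusted p under 0.05) and 12.8% were called in either direction. The same 5 were the only members whose control and fusion livers did not overlap downwards, which 8.15% of all genes did. The median member log2 fold change, fusion minus control, was -0.25, against -0.01 over all genes, and 29 of 35 members were negative. At an unadjusted p under 0.05, 10 members were lower (15.4% of all genes), adding Col6a2, Col6a3, Fbln5, Mfap4 and Pdgfrb. The count of lower members was 7 with DESeq2 (9.21% of genes), 4 without a filter (6.45%), 5 with other size factors (6.6%) and 2 to 6 when 1 liver was left out (3.84 to 6.29% of genes). Mfap5, a microfibril protein, was too low to test, at 0.552 ± 0.36 CPM (SD, n = 5) in controls and 0.138 ± 0.162 CPM (SD, n = 4) in fusion livers. Levels are in CPM after TMM scaling, libraries are named by their label numbers (control 1 to 5, fusion 6 to 9), and adjusted p-values for livers come from this edgeR fit.

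**Figure D1:**
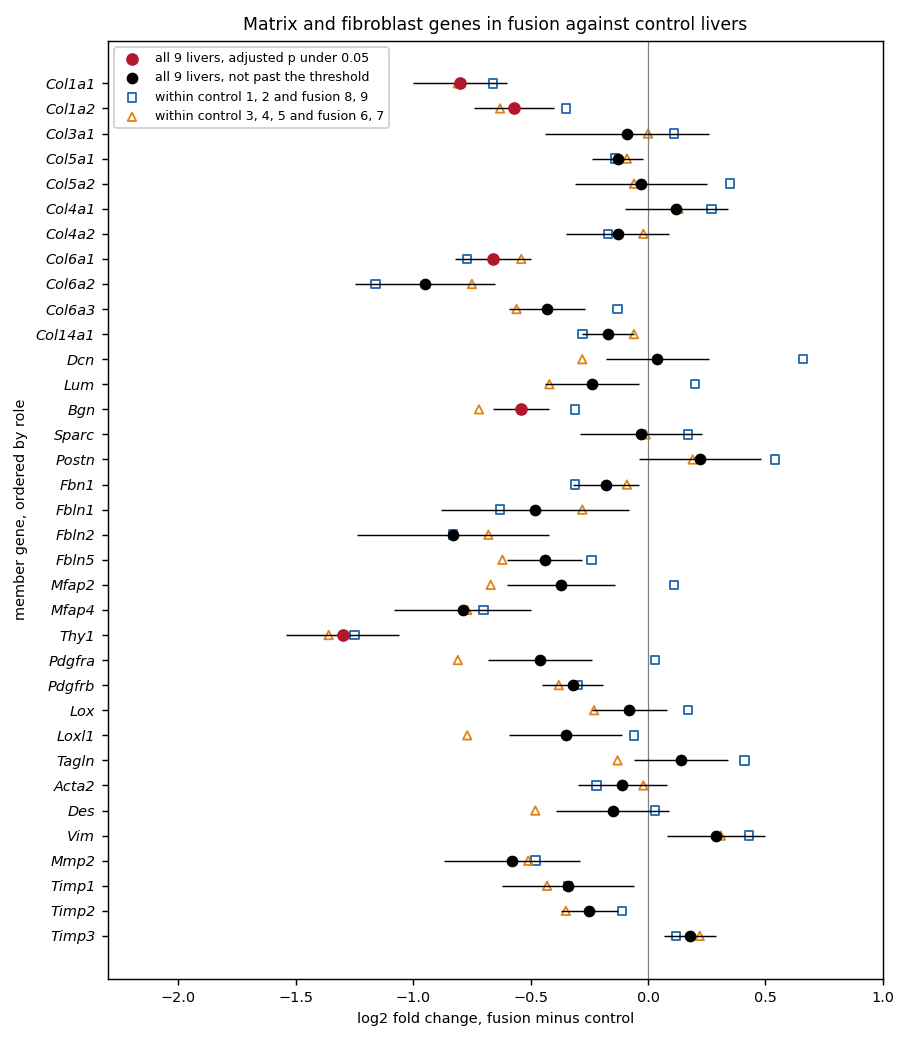
Log2 fold change, fusion minus control, of the 35 members tested (x axis, all 9 livers with SE bars; red, adjusted p under 0.05), ordered by role on the y axis. Open squares and triangles are the same contrast within each side of the library split. The 5 red points lie between -1.30 and -0.54, and 29 of the 35 points lie below 0.

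Among fibrillar collagens, the type I chains fell and the type III and V chains did not pass. Type I collagen, made of Col1a1 and Col1a2 chains, is the main tensile fibril of most connective tissues. Col1a1 (chromosome 11, 94936224 to 94953042) was at 89.5, 73.2, 99.5, 135 and 117 CPM in control 1 to 5, and at 68.6, 64.6, 41.4 and 61.2 CPM in fusion 6 to 9. Every control was above every fusion liver, with a log2 fold change of -0.80 ± 0.20 (SE; adjusted p = 0.0227). The call was lost without control 3, control 5 or fusion 8 (adjusted p 0.0157 to 0.0619 over the 9 fits that left out 1 liver). Col1a2 (chromosome 6, 4504814 to 4541544) was at 55.2, 57.0, 66.3, 89.6 and 82.6 CPM in controls and at 53.6, 48.8, 38.9 and 48.2 CPM in fusion livers. The lowest control and the highest fusion liver nearly met, and the log2 fold change was -0.57 ± 0.17 (SE; adjusted p = 0.0467). This call was lost in 7 of the 9 such fits, all but those without control 1 or control 2 (adjusted p 0.0395 to 0.127).

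Col3a1 (chromosome 1, 45311538 to 45349706), whose type III fibrils run alongside type I, was at 35.4, 40.0, 65.7, 96.0 and 94.5 CPM in controls and at 96.7, 73.2, 34.8 and 45.4 CPM in fusion livers. Its values followed the library split and not the genotype: 34.8 to 45.4 CPM in the 4 libraries with a high ribosomal share and 65.7 to 96.7 CPM in the other 5. The log2 fold change was -0.09 ± 0.35 (SE; adjusted p = 0.902), and 0.04 ± 0.13 (adjusted p = 0.855) with the split as a covariate. Col5a1 and Col5a2, chains of the type V collagen that nucleates type I fibrils, had log2 fold changes of -0.13 ± 0.11 and -0.03 ± 0.28 (SE; adjusted p = 0.502 and 0.958). Col5a2 lies 24614 bases from Col3a1 on chromosome 1 and was likewise lower in all 4 high-share libraries.

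**Figure D2:**
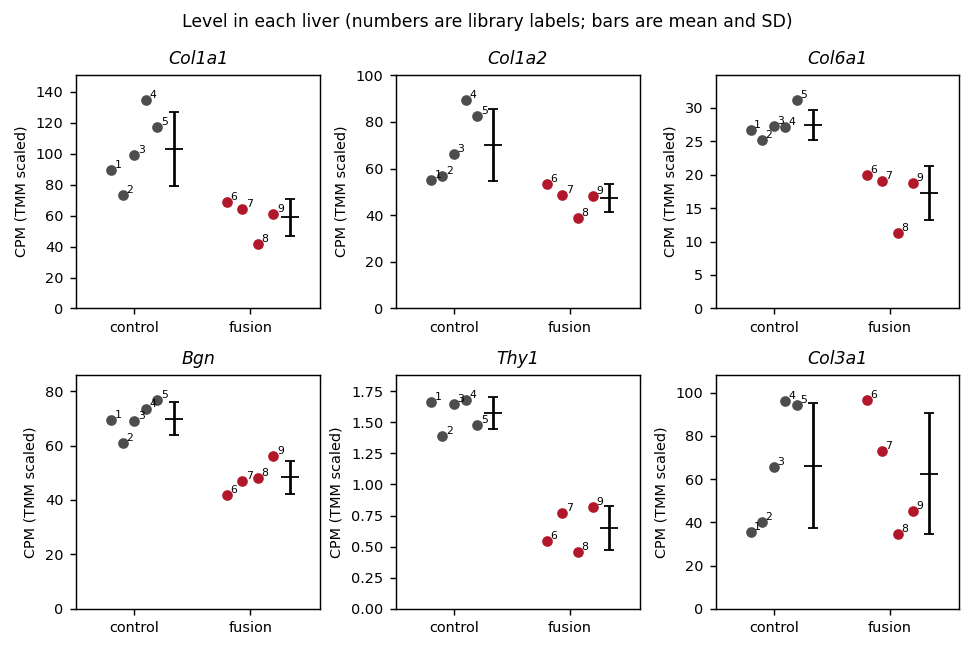
Level in each liver (y axis, CPM after TMM scaling) of the 5 members that fell and of Col3a1, by genotype (x axis). Points are livers with their label numbers, and bars are the mean and SD. Controls and fusion livers do not overlap in the first 5 panels, while the Col3a1 values of both groups span 34.8 to 96.7 CPM.

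The basement membrane chains Col4a1 and Col4a2 did not pass. They assemble with each other into the network under endothelium and epithelium. Col4a1 was at 68.7, 66.4, 86.2, 117 and 109 CPM in controls and at 138, 89.9, 81.8 and 80.0 CPM in fusion livers (log2 fold change 0.12 ± 0.22, SE; adjusted p = 0.747). Col4a2 was at 41.8, 37.5, 48.9, 60.2 and 60.5 CPM in controls and at 67.0, 44.3, 31.3 and 38.7 CPM in fusion livers (-0.13 ± 0.22, SE; adjusted p = 0.727). Both were lower in every high-share library than in any other.

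The ratio between these partner chains was steadier than their levels. Col4a1 CPM divided by Col4a2 CPM was 1.64, 1.77, 1.76, 1.94 and 1.80 in controls and 2.05, 2.03, 2.62 and 2.07 in fusion livers, so that every fusion liver was above every control. The difference was 0.29 on the log2 scale (exact permutation p = 0.0159, two-sided, which is the lowest possible with 5 against 4 livers; 0.106 adjusted over the 10 ratio tests made). The Col1a1 to Col1a2 ratio was 1.28 to 1.62 in controls and 1.06 to 1.32 in fusion livers, a log2 difference of -0.25 (exact permutation p = 0.0317, adjusted p = 0.106). The Col1a1 to Col3a1 ratio was 1.24 to 2.53 against 0.71 to 1.35, a log2 difference of -0.72 (exact permutation p = 0.0317, adjusted p = 0.106). The Col6a1 to Col6a2 and Col5a1 to Col5a2 ratios overlapped widely (exact permutation p = 0.175 and 0.762). None of the ratios passed after adjustment, and the pairs were chosen with the levels known.

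**Figure D3:**
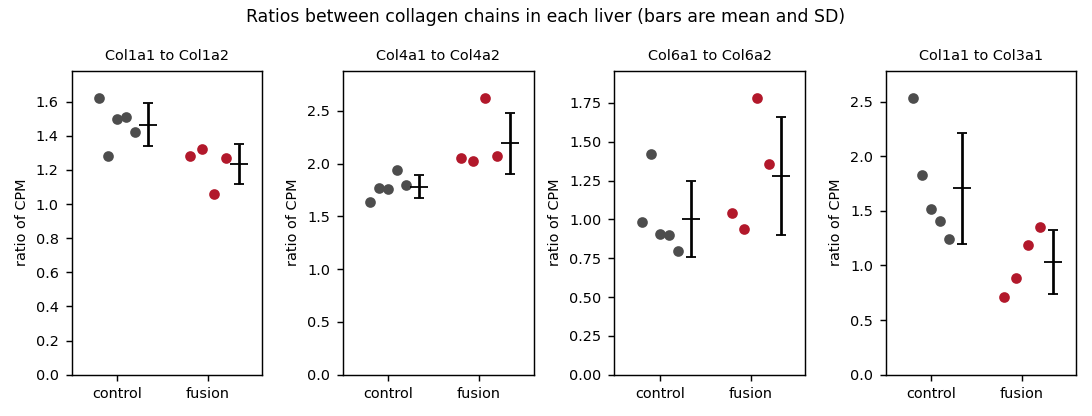
Ratio of CPM between collagen chains in each liver (y axis, starting at 0) by genotype (x axis). Points are livers, and bars are the mean and SD. The Col4a1 to Col4a2 ratios of the fusion livers, 2.03 to 2.62, all lie above the controls at 1.64 to 1.94.

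Type VI collagen forms beaded microfibrils around cells from Col6a1, Col6a2 and Col6a3 chains, and all 3 had negative fold changes. Col6a1 (chromosome 10, 76708792 to 76726168) was at 26.6, 25.1, 27.2, 27.1 and 31.2 CPM in controls and at 20, 19.0, 11.2 and 18.8 CPM in fusion livers. Controls lay within a narrow range and fusion 8 lay below the other fusion livers; the log2 fold change was -0.66 ± 0.16 (SE; adjusted p = 0.0220). The call was lost without control 3 or control 5 (adjusted p 0.0258 to 0.0578 over the fits that left out 1 liver). Col6a2, 85161 bases from Col6a1, was at 27.0, 17.7, 30, 30.2 and 39.1 CPM against 19.2, 20.3, 6.28 and 13.8 CPM. It had the larger log2 fold change of the pair, -0.95 ± 0.30, but control 2 lay inside the fusion range and the test was not passed (adjusted p = 0.0630). Col6a3 had a log2 fold change of -0.43 ± 0.16 (SE; adjusted p = 0.0933), and Col14a1, a chain that coats fibril surfaces, of -0.17 ± 0.11 (adjusted p = 0.328).

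Of the proteoglycans and matricellular proteins, only Bgn fell. Bgn encodes biglycan, a small proteoglycan that binds collagen fibrils, and lies on the X chromosome (73483602 to 73495933). Its level was 69.5, 60.8, 69.2, 73.3 and 76.8 CPM in controls and 42.0, 46.8, 48.1 and 56.3 CPM in fusion livers. The groups did not overlap and the log2 fold change was -0.54 ± 0.12 (SE; adjusted p = 0.0141); the call held in all 9 fits that left out 1 liver. Dcn (decorin) and Lum (lumican), relatives of Bgn that are neighbours on chromosome 10, had log2 fold changes of 0.04 ± 0.22 and -0.24 ± 0.20 (SE; adjusted p = 0.933 and 0.463). Sparc, a collagen-binding glycoprotein and the highest member per kilobase of exon at 24.7 CPM per kb, was at 57.5 to 122 CPM in controls and 65.8 to 133 CPM in fusion livers. Postn (periostin) had the second highest positive log2 fold change among the members, 0.22 ± 0.26 (SE; adjusted p = 0.614).

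No protein of elastic fibres or microfibrils passed, although all 6 tested were negative, with log2 fold changes from -0.83 to -0.18. Fbln5, a fibulin needed to assemble elastin, was at 8.20, 13.0, 10.9, 10.6 and 9.82 CPM in controls and 6.67, 6.88, 8.97 and 8.28 CPM in fusion livers. Only control 1 lay inside the fusion range, and the log2 fold change was -0.44 ± 0.16 (SE; adjusted p = 0.0917). Mfap4, a microfibril-associated protein whose gene overlaps Mapk7, was at 5.47, 5.02, 5.92, 8.88 and 8.55 CPM against 4.11, 5.22, 1.76 and 4.58 CPM (-0.79 ± 0.29, SE; adjusted p = 0.0927). Fbln2 had the most negative fold change of these 6 and a wide error (-0.83 ± 0.41, SE; adjusted p = 0.203). Fbn1, the fibrillin that forms the microfibril itself, had a log2 fold change of -0.18 ± 0.14 (adjusted p = 0.403).

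Of the 35 members tested, Thy1 had the most negative fold change. It encodes a surface glycoprotein found on portal fibroblasts, T cells and neurons, and lies on chromosome 9 (44043384 to 44048579). It was at 1.66, 1.39, 1.65, 1.68 and 1.48 CPM in controls and at 0.542, 0.771, 0.460 and 0.821 CPM in fusion livers. The level was low but above the value of 3 counts in every library (0.0658 to 0.392 CPM), and the log2 fold change was -1.30 ± 0.24 (SE; adjusted p = 0.00578), a call kept in all 9 fits that left out 1 liver. Pdgfra and Pdgfrb, the receptors for platelet-derived growth factors on mesenchymal cells, had log2 fold changes of -0.46 ± 0.22 and -0.32 ± 0.13 (SE; adjusted p = 0.194 and 0.137). Pdgfra was at 4.22 to 6.58 CPM in controls and 3.23 to 6.09 CPM in fusion livers, and Pdgfrb at 13.6 to 16.9 against 10.6 to 15.3 CPM.

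The crosslinking enzymes and the cytoskeletal and protease genes did not pass. Lox, the lysyl oxidase that starts collagen and elastin crosslinks, was at 6.36 to 9.74 CPM in controls and 7.53 to 8.74 CPM in fusion livers. Acta2, smooth muscle actin and a mark of contractile cells, was at 39.5 to 57.9 CPM against 27.9 to 56.7 CPM (-0.11 ± 0.19, SE; adjusted p = 0.752). Des (desmin), a filament protein of stellate and muscle cells, was at 10.3 to 13.7 CPM against 6.35 to 15.6 CPM (-0.15 ± 0.24, SE; adjusted p = 0.715). Vim (vimentin), a filament protein of mesenchymal, endothelial and blood cells, had the highest positive fold change of all members (0.29 ± 0.21, SE; adjusted p = 0.388). Mmp2, a gelatinase, had a log2 fold change of -0.58 ± 0.29 (SE; adjusted p = 0.203), and the inhibitors Timp1, Timp2 and Timp3 ranged from -0.34 to 0.18. Timp1 and Timp3 lie within Syn1 and Syn3, and Timp2 and Tagln overlap other genes, so without knowing whether counting used strand their reads are uncertain.

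The library split bore on these counts. In all, 7 members, namely Col3a1, Col4a1, Col4a2, Col5a2, Sparc, Fbln2 and Mmp2, were lower in all 4 high-share libraries than in any of the other 5, as were 9.73% of all genes, and Des was higher in all 4 (10.6% of all genes). With the split as a covariate, 12 members were lower and none higher, where 16.5% of all genes were lower. The 7 added to the first 5 were Col6a2, Col6a3, Fbln2, Fbln5, Mfap4, Pdgfrb and Mmp2. Within the 4 high-share libraries, 2 against 2, Col1a1, Col6a1 and Col6a2 were lower (9.80% of genes) and Dcn was higher (log2 fold change 0.66 ± 0.20, SE; adjusted p = 0.0428; 10.2% of genes). Col1a2, Bgn and Thy1 were negative there without passing (-0.35 ± 0.15, -0.31 ± 0.15 and -1.25 ± 0.46). Within the other 5 libraries, 14 members were lower and none higher (11.2% of genes lower), but there the 3 controls were male and the 2 fusion livers female, so sex and genotype cannot be told apart. The median member log2 fold change was -0.14 within the high-share libraries, with 21 of 35 members negative, and -0.40 within the others, with 32 of 36 negative. With sex as a covariate over all 9 livers, Bgn and Thy1 passed (5.47% of genes lower), while Col1a1, Col6a1 and Col1a2 had adjusted p-values of 0.0616, 0.0538 and 0.118.

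Genes that act on collagen, and other matrix genes, included falls and rises. These lists, like the members, were chosen with results of these data known. Of 27 chaperones and processing enzymes tested, 3 fell and 2 rose: Pcolce2, an enhancer of procollagen trimming, fell from 14.1 ± 3.01 to 4.64 ± 1.98 CPM, and P3h1, a collagen prolyl hydroxylase, from 44.0 ± 4.03 to 26.5 ± 4.43 CPM (SD, n = 5 and 4). Colgalt2, which adds galactose to collagen, rose from 0.865 ± 0.259 to 4.13 ± 1.29 CPM, and Loxl2, a relative of Lox, from 21.9 ± 4.35 to 56.1 ± 16.1 CPM. Of 17 other collagens, Col16a1 and Col27a1 fell. Of 26 other matrix proteins, 6 fell and none rose, led by Spon2 (log2 fold change -1.36 ± 0.18, SE; adjusted p = 0.00106), Eln (-1.0 ± 0.13; adjusted p = 0.00109) and Prelp. Eln encodes elastin, and was at 48.9 to 66.9 CPM in controls and 23.5 to 32.0 CPM in fusion livers.

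Of 22 matrix receptors, Itga7, Sdc1 and Itgav rose and Mrc2, which takes up collagen for breakdown, fell. Sdc1 (syndecan) was at 49.3 to 55.6 CPM in controls and 96.8 to 123 CPM in fusion livers (1.08 ± 0.11, SE; adjusted p = 0.000164), and the integrin chain Itga7 at 0.416 to 0.837 against 3.22 to 6.70 CPM. Of 18 laminin and basement membrane genes, Lamb1 rose and Lama5 and Lamb3 fell. Of 30 genes of the TGF-beta and PDGF pathways, only Ltbp2, a latent TGF-beta binding protein, passed (-1.51 ± 0.27, SE; adjusted p = 0.00533). Of 19 other proteases and inhibitors, Mmp23 and Mmp9 fell and Mmp19 rose, and of 14 mesenchymal transcription factors only Gata4 passed, falling by 0.60 on the log2 scale. Each of these shares can be set beside the 12.8% of all genes called.

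Some markers of matrix-making cells were called lower too, where 6.81% of all genes were. Portal fibroblast and mesothelial markers summed to 158 to 167 CPM in controls and 87 to 104 CPM in fusion livers, without overlap. Of the 15 tested 7 fell, including Eln, Krt19 and Krt7, and none rose; Krt7 and Krt19 also mark bile duct cells. Stellate cell markers summed to 629 to 880 against 349 to 655 CPM, which overlapped; Hand2, Reln and Ecm1 fell among 18 tested, while Lrat, the vitamin A storing enzyme, did not pass (-0.53 ± 0.22, SE; adjusted p = 0.140). Of 14 smooth muscle markers, Mylk and Myl9 fell. Macrophage markers summed to 1780 to 2300 against 1530 to 1740 CPM, also without overlap, with none of 18 past the threshold. Endothelial markers summed to 624 to 753 against 570 to 709 CPM, with none of 20 past it. In skeletal muscle markers none of 5 passed, and in skin and fat markers Plin4 fell among 6. With the library split as a covariate, 16.5% of all genes were lower and 16.1% higher. In that fit 4 endothelial markers were lower and 5 higher. It also had 6 macrophage, 8 stellate cell, 8 portal fibroblast and mesothelial and 3 smooth muscle markers lower, and none of these higher. The part of these cell types in the fall of the 5 members was not tested. Eln and Ecm1 are each on 2 lists.

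In the tumours, no matrix gene passed a test for palbociclib against vehicle. Of 33 members tested, none had an adjusted p under 0.05 (limma on log2(CPM + 1); smallest 0.953), as none of 12829 genes did (0%). At an unadjusted p under 0.05 there was 1 member, Fbln2, beside 4.57% of all genes. On the recovered reads, edgeR and DESeq2 called no member either. Each of these had 2 members at an unadjusted p under 0.05, Col4a1 and Col4a2, both lower. Of all genes, 3.19% with edgeR and 3.66% with DESeq2 were lower by that rule. Col14a1, Lum and Mfap2 were under a mean of 1 CPM and were not tested. The median member log2 fold change, palbociclib minus vehicle, was 0.39 against 0.14 over all genes, and 22 of 33 were positive. This direction depended on the method: the median was -0.15 with edgeR and -0.18 with DESeq2.

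The summed level of the 36 members was 1940 CPM in vehicle 1, 443 to 941 CPM in the other vehicle tumours and 542 to 1080 CPM in the palbociclib tumours. Vehicle 1 was the highest of the 5 vehicle tumours for 27 of 36 members and the highest of all 10 for 15, or for 31 when CPM were rescaled by TMM factors (0.629 for vehicle 1, 0.949 to 1.16 for the others). Timp2, an inhibitor of matrix proteases, was at 142 CPM in vehicle 1 and 8.72 to 15.9 CPM in the other vehicle tumours. The same tumour had macrophage markers summing to 2930 CPM against 150 to 312 CPM in the other vehicle and 179 to 532 CPM in the palbociclib tumours, led by Lyz2, and endothelial markers at 665 against 205 to 420 and 234 to 306 CPM. Portal fibroblast and mesothelial markers summed to 95.4 CPM in vehicle 1 and 24.2 to 45.4 CPM in the other 9. Of the other matrix and mesenchymal lists, 6 were lowest of all 10 tumours in vehicle 1: stellate cell markers at 317 CPM (453 to 630 in the other 9), smooth muscle and pericyte markers at 468 CPM (631 to 890), other collagens at 311 CPM (432 to 835), other matrix proteins at 2140 CPM (2920 to 4900), collagen chaperones and processing enzymes at 942 CPM (2170 to 2720), and collagen and matrix receptors at 755 CPM (1360 to 2360). None of these list sums was rescaled by TMM factors, which would raise those of vehicle 1 relative to the other 9 tumours. Divided by these factors, vehicle 1 would stay lowest for collagen chaperones and processing enzymes and for collagen and matrix receptors. For stellate cell markers, smooth muscle and pericyte markers, other collagens and other matrix proteins, other tumours would be lower. The part of these cell types in the matrix gene levels of vehicle 1 was not tested.

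**Figure D4:**
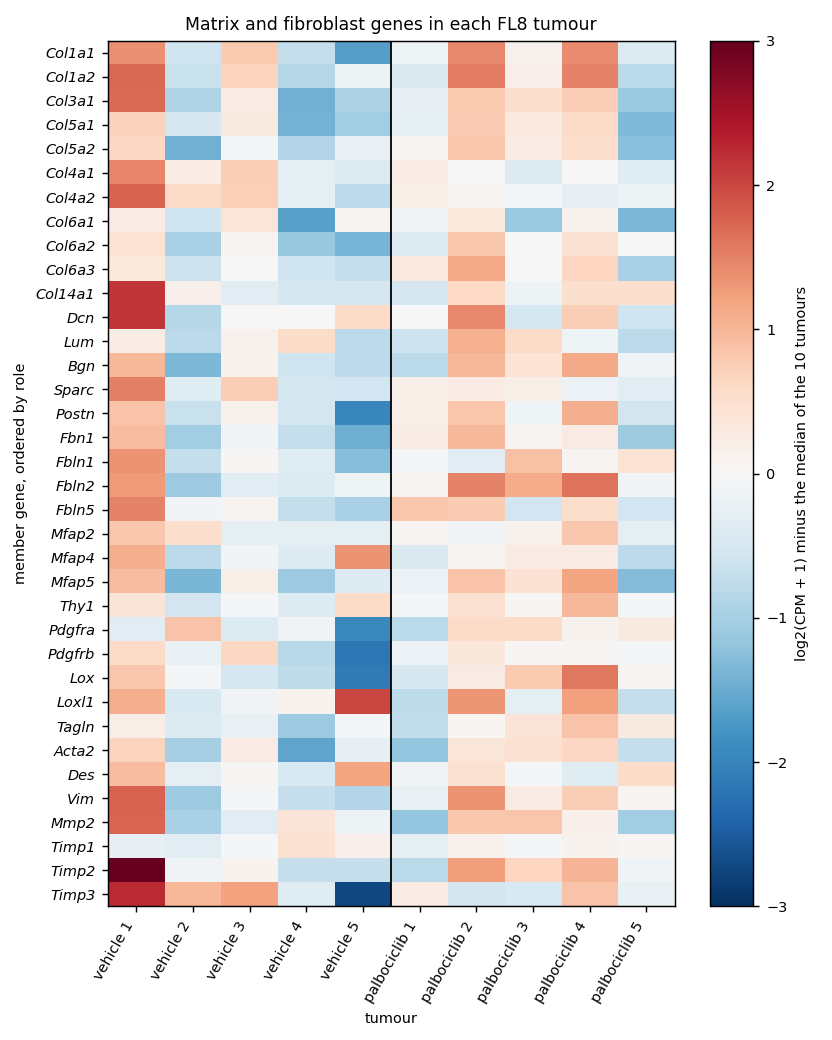
Level of each member (rows, ordered by role) in each tumour (columns), as log2(CPM + 1) minus the median of the 10 tumours; the scale runs from -3 to 3. Vehicle 1, the first column, is highest of all tumours for 15 of 36 rows, and palbociclib 2 and 4 are the 2 highest of their arm for 20 rows.

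Without vehicle 1, none of 32 members passed either (0% of 12739 genes), with a smallest adjusted p of 0.968. The median rose to 0.66 against 0.03 over all genes, and 27 of 32 were positive. At an unadjusted p under 0.05 there were 9 members, each positive, beside 3.23% of all genes: Col1a1, Col3a1, Col6a2, Bgn, Postn, Fbn1, Fbln2, Lox and Vim. Fbln2 was the one member whose groups did not overlap then (1.07% of genes higher). The list of 9 depended on the method. Without vehicle 1, limma on TMM-scaled CPM gave 6 higher members at an unadjusted p under 0.05 (3.38% of genes higher). These were Col6a2, Bgn, Postn, Fbln2, Lox and Vim. By the same rule edgeR gave 7 (2.33% of genes higher), namely Col6a2, Col6a3, Bgn, Fbln2, Lox, Vim and Timp2. Col1a1, Col3a1 and Fbn1 were in neither list. Across the vehicle tumours Fbln2 was at 17.6, 2.61, 5.14, 4.77 and 6.09 CPM in vehicle 1 to 5, and at 7.10, 20.6, 15.6, 22.8 and 6.32 CPM in palbociclib 1 to 5. Its log2 fold change was 0.98 ± 0.44 with all tumours and 1.33 ± 0.39 without vehicle 1 (SE; adjusted p = 0.953 and 0.968).

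**Figure D5:**
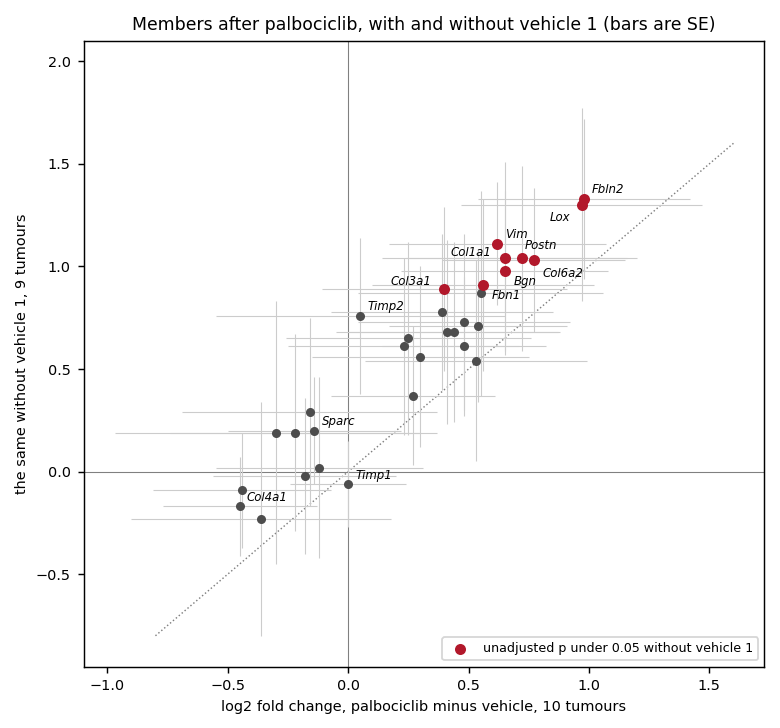
Log2 fold change, palbociclib minus vehicle, of the 32 members tested both ways, with all 10 tumours (x axis) and without vehicle 1 (y axis); bars are SE and the dotted line marks equality. All points but Timp1 lie above the line, and the 9 red ones have an unadjusted p under 0.05 without vehicle 1.

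Fibrillar collagens varied widely within both arms. Col1a1 was at 76.4, 18.8, 50.4, 17.2 and 8.46 CPM in vehicle 1 to 5 and at 26.1, 80.2, 31.8, 79.1 and 21.4 CPM in palbociclib 1 to 5. The arms overlapped, with palbociclib 2 and 4 as high as vehicle 1 in CPM. When CPM were rescaled by TMM factors, vehicle 1 was the highest tumour for Col1a1. The limma log2 fold change was 0.65 ± 0.51 (SE, adjusted p = 0.953). Without vehicle 1 it was 1.04 ± 0.47 (unadjusted p = 0.0433, adjusted p = 0.982). Col1a2 was at 58.8, 10.3, 27.6, 9.01 and 15.2 CPM against 12.4, 51.1, 19.2, 49.9 and 9.41 CPM, the same 3 high tumours (0.25 ± 0.51, SE; adjusted p = 0.966; 0.65 ± 0.47 without vehicle 1, adjusted p = 0.994). Col3a1 was at 84.2, 13.1, 30.2, 8.72 and 12.9 CPM against 21.3, 44.4, 36.2, 43.3 and 11.1 CPM. The log2 fold change of Col3a1 was 0.40 ± 0.51, and 0.89 ± 0.40 without vehicle 1 (SE; adjusted p = 0.958 and 0.982).

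The basement membrane chains had negative fold changes, which were closer to 0 without vehicle 1. Col4a1, the fourth highest member per kilobase of exon at 14.2 CPM per kb, was at 247, 103, 150, 72.3 and 66.7 CPM in vehicle and 106, 89.4, 67.6, 88.3 and 68.8 CPM in palbociclib tumours. The log2 fold change was -0.45 ± 0.32, and -0.17 ± 0.24 without vehicle 1 (SE; adjusted p = 0.953 and 0.994). Col4a2 was at 175, 75.2, 84.2, 40.9 and 28.8 CPM against 57.9, 52.4, 48.7, 42.1 and 45.7 CPM (-0.44 ± 0.37, SE; adjusted p = 0.953). Without vehicle 1 the log2 fold change of Col4a2 was -0.09 ± 0.28 (adjusted p = 0.994). For both chains the palbociclib tumours lay within the range of the vehicle tumours and spread less. The Col4a1 to Col4a2 ratio was 1.37 to 2.32 in vehicle and 1.39 to 2.1 in palbociclib tumours (exact permutation p = 0.952), without the separation seen in the livers; the difference between the experiments was not tested.

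Among the other members, Vim had the smallest unadjusted p once vehicle 1 was left out. It was at 312, 41.9, 87.5, 56.0 and 49.1 CPM in vehicle and 78.1, 233, 108, 152 and 94.7 CPM in palbociclib tumours. Its log2 fold change was 0.62 ± 0.45, and 1.11 ± 0.30 without vehicle 1 (SE; adjusted p = 0.953 and 0.968; unadjusted p = 0.00199 in the latter). Lox was at 6.64, 3.18, 2.06, 1.57 and 0 CPM against 2.11, 4.18, 6.55, 12.0 and 3.54 CPM (0.97 ± 0.50, SE; adjusted p = 0.953; 1.30 ± 0.47 without vehicle 1, adjusted p = 0.968). In vehicle 5 a value of 0 allows up to 1.01 CPM, the worth of 3 reads in that shallow library, and 9 members were at 0 there. Bgn, Col6a2, Col6a3 and Postn had log2 fold changes of 0.65 ± 0.43, 0.77 ± 0.38, 0.54 ± 0.37 and 0.72 ± 0.48 (SE; adjusted p = 0.953 for each), and of 0.98 ± 0.39, 1.03 ± 0.35, 0.71 ± 0.37 and 1.04 ± 0.45 without vehicle 1. Tagln, Acta2 and Des, all contractile or muscle filament genes, had 0.48 ± 0.34, 0.30 ± 0.45 and -0.18 ± 0.38, and Pdgfra and Pdgfrb had 0.53 ± 0.46 and 0.44 ± 0.44. Without vehicle 1 these 5 were 0.61 ± 0.34, 0.56 ± 0.44, -0.02 ± 0.38, 0.54 ± 0.49 and 0.68 ± 0.44. Timp1 was the steadiest member, at 21.3 to 37.4 CPM in vehicle and 22.1 to 29.6 CPM in palbociclib tumours (-0.00 ± 0.24, SE; adjusted p = 1.00; -0.06 ± 0.21 without vehicle 1).

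Per kilobase of exon, the order of levels differed between livers and tumours, although the tables were normalized separately and were not tested against each other. In livers the highest were Sparc (24.7 CPM per kb), Acta2 (21.1), Vim and Tagln (19.7 each) and Col1a1 (12.7), and in tumours Sparc (60.6), Timp1 (30.5), Vim (25.6), Col4a1 (14.2) and Col4a2 (9.83). The lowest were Mfap5 in livers (0.102) and Col14a1 in tumours (0.134). Col14a1 ranked 7 of 36 in livers, at 9.95 CPM per kb. Exon lengths are unions over all annotated transcripts, which lowers the value of genes with long minor transcripts.

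None of the genes on the other matrix and cell marker lists passed in the tumours, and 0 to 2 genes per list had an unadjusted p under 0.05. With all tumours, every one of 18 endothelial markers tested had a negative fold change, with a median of -0.37, which became -0.11 without vehicle 1. Macrophage markers had a median of -0.23 over 14 genes with all tumours and 0.59 over 13 without vehicle 1. In the latter fit 6 of them had an unadjusted p under 0.05, beside 5.09% of all genes, and none passed after adjustment. The macrophage sum was highest among palbociclib tumours in palbociclib 2, at 532 CPM, the same tumour in which 19 members were highest of the arm. Of 19 stellate cell markers only 6 reached a mean of 1 CPM, among them Reln but not Lrat or Hand2. Skeletal muscle markers summed to 5.19 to 38.7 CPM and skin and fat markers to 247 to 364 CPM over the 10 tumours.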

How the data were processed

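RNA was sequenced from 9 embryo livers (poly-A RNA) and 10 subcutaneous tumours (total RNA, paired reads). The authors deposited raw counts per gene symbol for the embryos, per the file headers, aligned with STAR 2.5.1b to mm10, per the submitters' processing notes; its 9 columns of scaled fragments were not used. For the tumours the authors deposited CPM per Ensembl gene, per the file headers, and the submitters' processing notes name cutadapt 2.10, HISAT2, featureCounts and mm10. The annotation and use of strand are not given in the sources used here. All CPM values (100%, tolerance 0.001) were whole multiples of the worth of 1 read, so whole reads and library totals were recovered.

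Embryo counts were tested with edgeR 4.0.16 (TMM factors, filterByExpr, quasi-likelihood test) in R 4.3.3, and tumours with limma 3.58.1 (empirical Bayes with trend) on log2(CPM + 1), keeping genes that averaged 1 CPM or more, a scale that understates changes of low genes. Fits covered all genes, with Benjamini-Hochberg adjustment and a threshold of 0.05. Groups came from the genotype and treatment labels. Both fits were tested on simulated data. For ratios of collagen chains, log2 values were put through exact permutation tests (two-sided). Positions and exon lengths are from GENCODE M21 (GRCm38, equal to mm10), which gave symbols for 17469 of 17606 tumour IDs and holds 13103 of 13549 embryo symbols; promoters are from RefSeq.

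Depth ranged from 2.96 to 45.6 M (M, 1000000 reads); floors of 3 counts cover counting error only. No 2 libraries of a group agreed within counting noise. The labels do not say that tumours came from separate animals, so p-values measure the spread between these samples. The controls of the tumours are described as given the carrier in the labels and as PBS in the series text, and the labels were followed. Members and lists were chosen with earlier results of these data known. Members past the threshold were named, then those with the smallest p up to 10, and always Col1a1, Col1a2, Col3a1, Col4a1, Col4a2, Acta2, Des, Vim, Pdgfra and Pdgfrb; of each list up to 3 genes past the threshold were to be named. Other genes were named after their values were seen. Alternatives were other size factors, filters, pseudocounts, DESeq2 1.42.0, edgeR on recovered reads, a sex covariate, a replicate block, the library split and each sample left out.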

Additional observations from a re-analysis of the deposited data

Results flagged for a closer look

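In each group of 4 or 5 samples, the level of each member was checked for 1 sample far from the others, by the gap to its neighbour over the range of the group. Of 136 groups of values 10 met the rule, where chance alone gives about 1 in 20.

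In 8 of the 10 the sample was vehicle 1, on the high side. Its values were 84.2 CPM for Col3a1 (8.72 to 30.2 in the other vehicle tumours), 10.0 for Dcn (0.38 to 2.71), 5.23 for Fbln1 (0 to 1.49), 17.6 for Fbln2 (2.61 to 6.09), 4.55 for Fbln5 (0 to 1.1), 312 for Vim (41.9 to 87.5), 10.4 for Mmp2 (0.712 to 3.43) and 142 for Timp2 (8.72 to 15.9). Vehicle 1 is also the tumour with 46.6% mitochondrial reads and the highest macrophage marker sum.

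In the livers, Col6a1 was low in fusion 8 at 11.2 CPM, against 18.8 to 20 in the other fusion livers. Loxl1, a lysyl oxidase needed for elastic fibres, was high in control 2 at 6.41 CPM, against 4.61 to 4.93 in the other controls.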

How the results depend on the processing

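The count of 5 lower members in fusion livers stood beside 6.81% of all genes called lower. It became 12 with the library split as a covariate (16.5% of genes), 14 within the low-share libraries (11.2%) and 2 with sex as a covariate (5.47%). Calls over all genes thus rose in the split fits too, and these fits were chosen after seeing the data. Leaving out 1 liver gave 2 to 6 (3.84 to 6.29% of genes). There were 2 without control 3 (3.84%) or control 5 (4.9%) and 3 without fusion 8 (4.05%). The count was 7 with DESeq2 (9.21% of genes), 4 without a filter (6.45%) and 5 with other size factors (6.6%). The fold change of Col3a1, never past the threshold, turned positive with the split covariate (0.04), the sex covariate (0.24) and within the high-share libraries (0.11), where Pdgfra and Des did so too (0.03 each). Leave-one-out ranges that crossed 0 were -0.37 to 0.11 for Col3a1, -0.08 to 0.24 for Col4a1, -0.38 to 0.01 for Col4a2, -0.24 to 0.07 for Acta2 and -0.40 to 0.03 for Des; Col3a1 was 0.04 without fusion 9, 0.08 without control 4 and 0.09 without control 5.

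In the tumours no setting called a member. The median turned negative on the recovered reads of all 10 tumours, -0.15 with edgeR and -0.18 with DESeq2, as did Col1a2 (-0.15 and -0.17), Col3a1 (-0.39 and -0.41), Pdgfrb (-0.14 and -0.15), Acta2 (-0.06 and -0.08) and Vim (-0.16 and -0.18); without vehicle 1, in fits chosen after seeing the data, the median was 0.84 with edgeR and 0.67 with TMM factors. Leaving out 1 tumour gave medians of 0.14 to 0.66, and crossed 0 for Col1a2 (-0.03 to 0.65; -0.02 without palbociclib 4), Acta2 (-0.00 to 0.57) and Des (-0.36 to 0.05). The causes were not tested. A replicate block by tumour number called 0 members, with a median of 0.39 and no member at an unadjusted p under 0.05. Same-numbered tumours did not deviate together (correlations -0.317 to 0.00223, none best with its own number). No label says that same-numbered tumours are paired, and these correlations cannot exclude a pairing. No paired analysis was possible in the livers because control and fusion livers share no number. Vehicle 5, at 2.96 M (1000000) reads, limits what can be seen of low members.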
